A study of Mus musculus with 8 samples.

Results

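The genes of the Nodal and TGF-beta pathway were examined for binding of NANOG and BRG1 and for 2 histone marks in mouse embryonic fibroblasts (MEFs) on the way to pluripotency. The 10 genes were chosen by name from the 21755 protein-coding genes of chromosomes 1 to 19 and X. They were the ligands Nodal, Tgfb1, Tgfb2 and Tgfb3, the inhibitors Lefty1, Lefty2 and Smad7, the receptors Tgfbr1 and Tgfbr2, and the signal transducer Smad3. Each gene was taken with 20 kb either side, and the 8 peak lists held 365 peaks in these windows out of 425777. The MEFs carried an Oct4-GFP reporter and were infected with retroviruses carrying Oct4 and a FLAG-tagged Nanog. That Nanog was the wild type (NanogWT) or was joined to the BRG1-interacting part of SS18 (NanogBiD, named NanogN70 in the labels). All cells were collected at day 5, so both arms share Oct4, the medium and the time, and there was no arm without NANOG. CUT&Tag, in which an antibody guides a transposase to its target, was run for FLAG, which reports NANOG, for H3K27ac, for H3K4me1 and for BRG1, the motor subunit of BAF, a complex that slides and evicts nucleosomes. Each target had 1 library per arm.

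Ligands of the TGF-beta family join type II and type I serine/threonine kinase receptors, and the type I receptor phosphorylates SMAD2 and SMAD3, which enter the nucleus with SMAD4 and act on genes with partners such as FOXH1. Nodal signals through activin receptors in the early embryo and switches on its own inhibitors, the Lefty genes, whereas the TGF-beta ligands keep fibroblasts mesenchymal and oppose the change towards an epithelial state in early reprogramming. H3K27ac marks active promoters and enhancers, and H3K4me1 marks enhancers whether active or only primed.

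The lists held from 30859 to 74782 peaks. Peak height, the number of tags piled up at the summit of a peak, was not scaled to sequencing depth. Per the study's reporting summary the NanogBiD libraries of FLAG and BRG1 were sequenced more deeply than those of NanogWT, and the NanogBiD libraries of both marks less deeply, so that depth and arm cannot be told apart. An H3K27ac peak lay near the start of 7 of 8 fibroblast genes in both arms (all but Prrx1). Of 7 genes of epithelial, blood and endothelial cells, 0 had one in NanogWT and 2 (Ptprc and Cdh5) had one in NanogBiD. The part of such cells in the results was not tested. With 1 library per group no test between arms was possible, and the 95% intervals below cover counting error only.

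The first comparison was of the number of peaks at the 10 genes. The FLAG lists held 50 peaks of NanogWT against 45 of NanogBiD there, giving a ratio of 0.9 (95% interval 0.588 to 1.37), while the whole list was 1.27 times longer in NanogBiD. FLAG peaks were fewer in NanogBiD at 7 genes, more at 2 (Tgfb2 and Tgfbr1) and absent at Nodal. The 7 became 0 with scores from 100 up, 1 with heights of at least 15 tags, 2 among the top 20000 peaks and 4 with 10 kb either side. Among all coding genes with a FLAG peak in their window, 17.6% had fewer in NanogBiD and 50.2% had more. The interval included both 1 and the ratio of the whole list. The direction also depended on which peaks were kept. The ratio was 1.22 with a score of at least 100, 1.1 among the top 20000 peaks by score and 1.25 with heights of at least 15 tags. The top 20000 setting makes both whole lists equally long, so 1.27 is not its yardstick. Ratios of the whole lists under the score and height limits were not computed. At the 10 genes the ratio was 1.03 with 50 kb either side.

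BRG1 peaks numbered 35 and 43, or 1.23 times as many in NanogBiD (0.768 to 1.98), beside 1.74 for the whole list. They were more in NanogBiD at 4 genes (Tgfb2, Tgfb3, Tgfbr1 and Smad3), fewer at 0 and equal at 6, Nodal with no peak included. Over all coding genes with a BRG1 peak 53.2% had more and 12.7% had fewer. Among the top 20000 peaks by score, a setting that makes both whole lists equally long, the BRG1 ratio was 0.75.

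H3K27ac peaks numbered 44 and 38, a ratio of 0.864 (0.544 to 1.36) beside 1.20 for the whole list. They were fewer in NanogBiD at 5 genes and more at 1 (Smad3), beside 17.4% with fewer and 37.4% with more among coding genes with such a peak. H3K4me1 peaks numbered 65 and 45, a ratio of 0.692 (0.463 to 1.03) beside 0.791 for the whole list. They were fewer at 9 genes, equal at Smad3 and more at 0, beside 51.6% with fewer and 19.7% with more among coding genes with such a peak. The intervals of H3K27ac and H3K4me1 also included the ratio of the whole list.

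**Figure D1:**
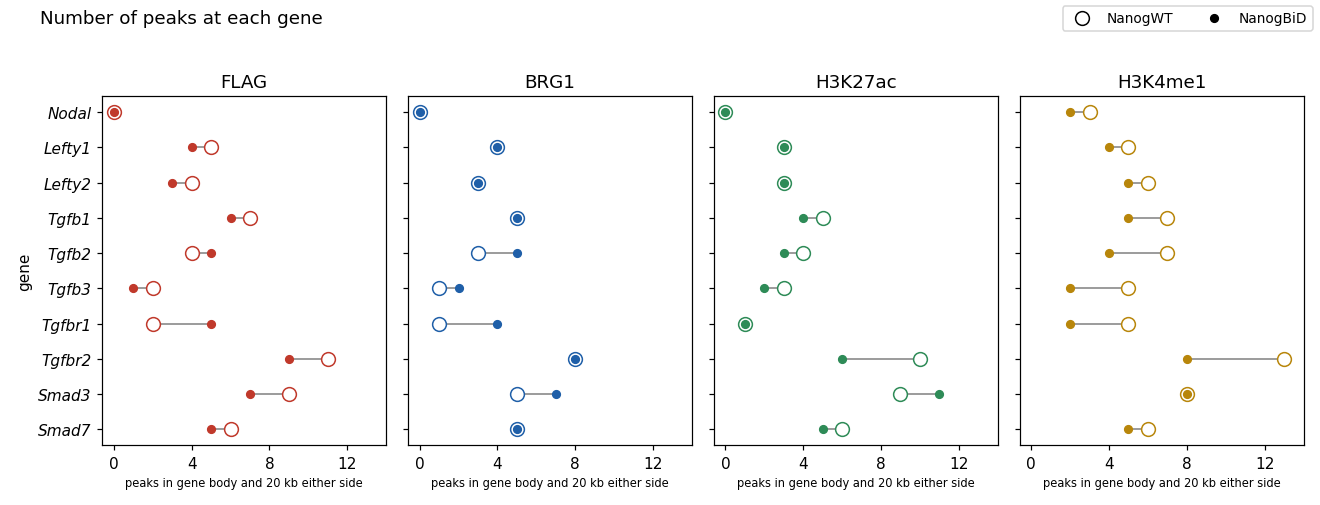
Number of peaks (x axis) in the window of each of the 10 genes (y axis) for each target, with open circles for NanogWT and filled circles for NanogBiD, 1 library each. FLAG peaks are fewer in NanogBiD at 7 genes, a count that is 0 with scores from 100 up, and H3K4me1 peaks at 9, whereas BRG1 peaks are fewer at 0.

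**Figure D2:**
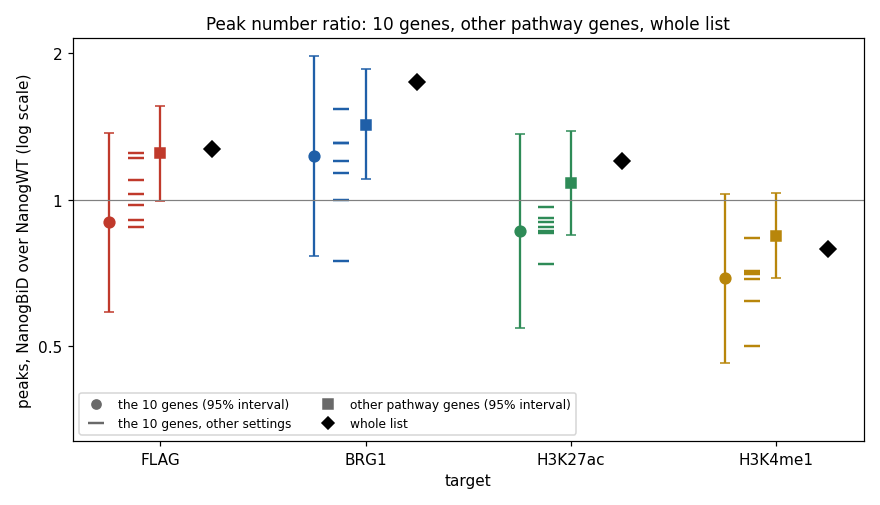
Ratio of peak number, NanogBiD over NanogWT, on a log axis for each target. Circles are the 10 genes and squares 41 other genes of the pathway, both with 95% intervals for counting error. Short bars are the 10 genes under other settings, and diamonds are the whole lists under the main setting only. The circle of BRG1 alone stands above 1, its interval includes 1, and bars of both FLAG and BRG1 fall on both sides of 1.

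Most peaks at the 10 genes were found in both arms. Peaks of the same target that overlapped or touched were merged into regions, and of 59 FLAG regions 34 were shared. NanogWT alone had 14 (23.7%, beside 15.8% over the genome) and NanogBiD alone had 11 (18.6%, beside 33.7%). Of 50 BRG1 regions 28 were shared, NanogWT alone had 7 (14%, genome 9.91%) and NanogBiD alone had 15 (30%, genome 48.4%). For H3K27ac 33 of 48 regions were shared, 10 were NanogWT only (20.8%, genome 14.6%) and 5 NanogBiD only (10.4%, genome 29.1%). For H3K4me1 39 of 71 were shared, 26 were NanogWT only (36.6%, genome 34.8%) and 6 NanogBiD only (8.45%, genome 17.3%).

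FLAG regions found in 1 arm were lower than shared ones. The 14 FLAG regions of NanogWT only had heights of 9 to 25 tags with a median of 11, and the 11 of NanogBiD only had heights of 9 to 21 with a median of 13. Heights at the 34 shared FLAG regions had a median of 16 tags in NanogWT and 20 in NanogBiD. Over the genome these medians were 11 for NanogWT only, 12 for NanogBiD only, and 16 and 18 for shared regions. The 26 H3K4me1 regions of NanogWT only had heights of 9 to 25 tags with a median of 16 (genome 13), below the median of 19 tags at shared regions in NanogWT. Of the 26, 16 reached 15 tags, beside 35.1% of such regions over the genome.

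At shared regions FLAG was higher in NanogBiD at 25, lower at 5 and equal at 4. The median of log2 height, NanogBiD over NanogWT, was 0.37 at the 10 genes and 0.15 over the genome, and it ranged from 0.34 to 0.48 when each gene was left out in turn. It was 0.14 with scores in place of heights, 0.17 among the top 20000 peaks and 0.23 with 10 kb either side. A FLAG summit at least 1.5 times higher in NanogBiD was found at 8 of the 34 regions (22% over the genome), and at 2 it was that much higher in NanogWT (8.45% over the genome). BRG1 heights did not follow those of FLAG, with a median log2 of -0.10 (genome 0.14), and 9 regions higher, 16 lower and 3 equal. This median was 0 without Smad3, and it turned to 0.37 when peak scores were used in place of heights. A BRG1 summit at least 1.5 times higher in NanogBiD was found at 4 regions (20.5% over the genome) and at 1 it was that much higher in NanogWT (4.53%).

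H3K27ac heights were balanced, with a median log2 of 0.00 (genome 0.08), 15 regions higher and 15 lower in NanogBiD. At 2 regions, beside Lefty2 and Smad7, H3K27ac was at least 1.5 times higher in NanogBiD (9.59% over the genome), and at 0 in NanogWT (4.01%). H3K4me1 was lower in NanogBiD at 29 of 39 regions, with a median log2 of -0.24 (genome -0.18). It was at least 1.5 times higher in NanogWT at 2 regions, beside Tgfb2 and Tgfb3 (11.7% over the genome), and in NanogBiD at 0 (1.06%). For no target were the regions merely higher or lower in NanogBiD counted over the genome.

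**Figure D3:**
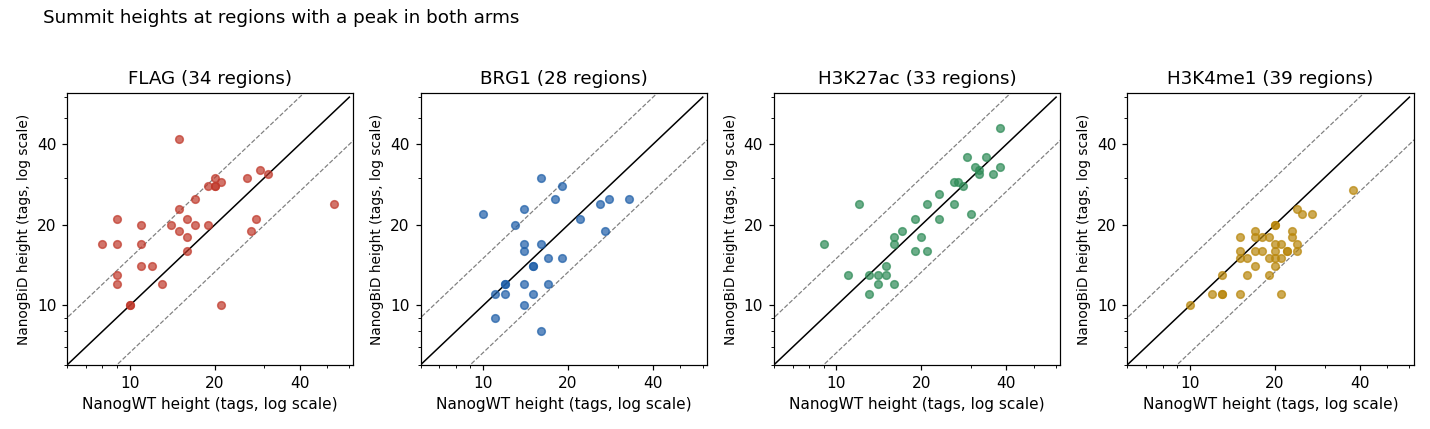
Summit height in tags, NanogWT on the x axis and NanogBiD on the y axis, both log, at the regions of the 10 genes with a peak in both arms. Each point is 1 region, the solid line marks equal heights and the dashed lines 1.5 times. FLAG points lie mostly above the line and H3K4me1 points mostly below it, and the highest points of FLAG in each arm are a Smad3 intron (15 and 42 tags) and a Tgfbr2 intron (53 and 24 tags).

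The next comparison was of NANOG with BRG1 on the same DNA. In NanogWT 30 of 50 FLAG peaks at the 10 genes overlapped a BRG1 peak (60%, Wilson 95% interval 46.2 to 72.4). In NanogBiD 38 of 45 did (84.4%, 71.2 to 92.3), and the shares over the whole lists were 44.1% and 64.7%. The share was higher in NanogBiD under all 9 alternatives tried, the narrowest gap being 54.2% and 56.7% with heights of at least 15 tags. In the other direction, 30 of 35 BRG1 peaks in NanogWT (85.7%) and 38 of 43 in NanogBiD (88.4%) overlapped FLAG, close to the 84.4% and 90.5% of the whole lists. FLAG peaks overlapped H3K27ac at 72% in NanogWT and 66.7% in NanogBiD, beside 48.9% and 48.3% over the whole lists. They overlapped H3K4me1 at 76% and 64.4%, and this share was lower in NanogBiD over the whole lists too (63.6% and 49.0%).

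The 4 FLAG and BRG1 lists merged into 65 regions at the 10 genes. Both targets were found in both arms at 25 of them (38.5%, genome 23.7%). BRG1 joined a FLAG peak present in both arms in NanogBiD only at 8 (12.3%, genome 15.2%), and in NanogWT only at 1 (genome 1.53%). Both FLAG and BRG1 were found in NanogBiD only at 4 regions (6.15%, genome 11.1%) and in NanogWT only at 3 (4.62%, genome 1.55%). The first 4 were at Tgfbr1 (2 regions), Tgfbr2 and Tgfb1, and the 3 others were at Lefty1, Lefty2 and Tgfbr2. The BRG1 peaks of those 4 had 7 to 12 tags. When peaks under 15 tags were dropped, none of the 4 was left and 2 other regions had both factors in NanogBiD only, and with 50 kb either side the number was 9.

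Near the gene start, within 2 kb of the 5′ end, 7 of the 10 genes (Lefty1, the 3 TGF-beta ligands, both receptors and Smad3) had a peak of every target in both arms. The share of all coding genes with such a set was not computed. At Tgfb1 the FLAG peak over the start itself, of 13 tags, was in NanogWT only. FLAG of NanogBiD counted there through a region centred 2.35 kb downstream, of 10 tags. Smad7 had all but H3K4me1. Nodal had only H3K4me1, and Lefty2 had only H3K4me1 in NanogBiD.

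For the positions that follow, 0 is the start of the gene, distances run in the direction of transcription and are given in kb to the middle of a site, and a site is all overlapping peaks of the 8 lists. Coordinates are those of mm10. The 10 windows held 86 sites, of which 13 were at promoters of the 10 genes, 10 at promoters of other coding genes, 34 in introns, 6 in exons and 23 between genes. Sequences run 50 bases either side of the FLAG summit on the plus strand, read from the RefSeq assembly GRCm38.p6, with matches to the motifs searched in capitals.

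**Figure D4:**
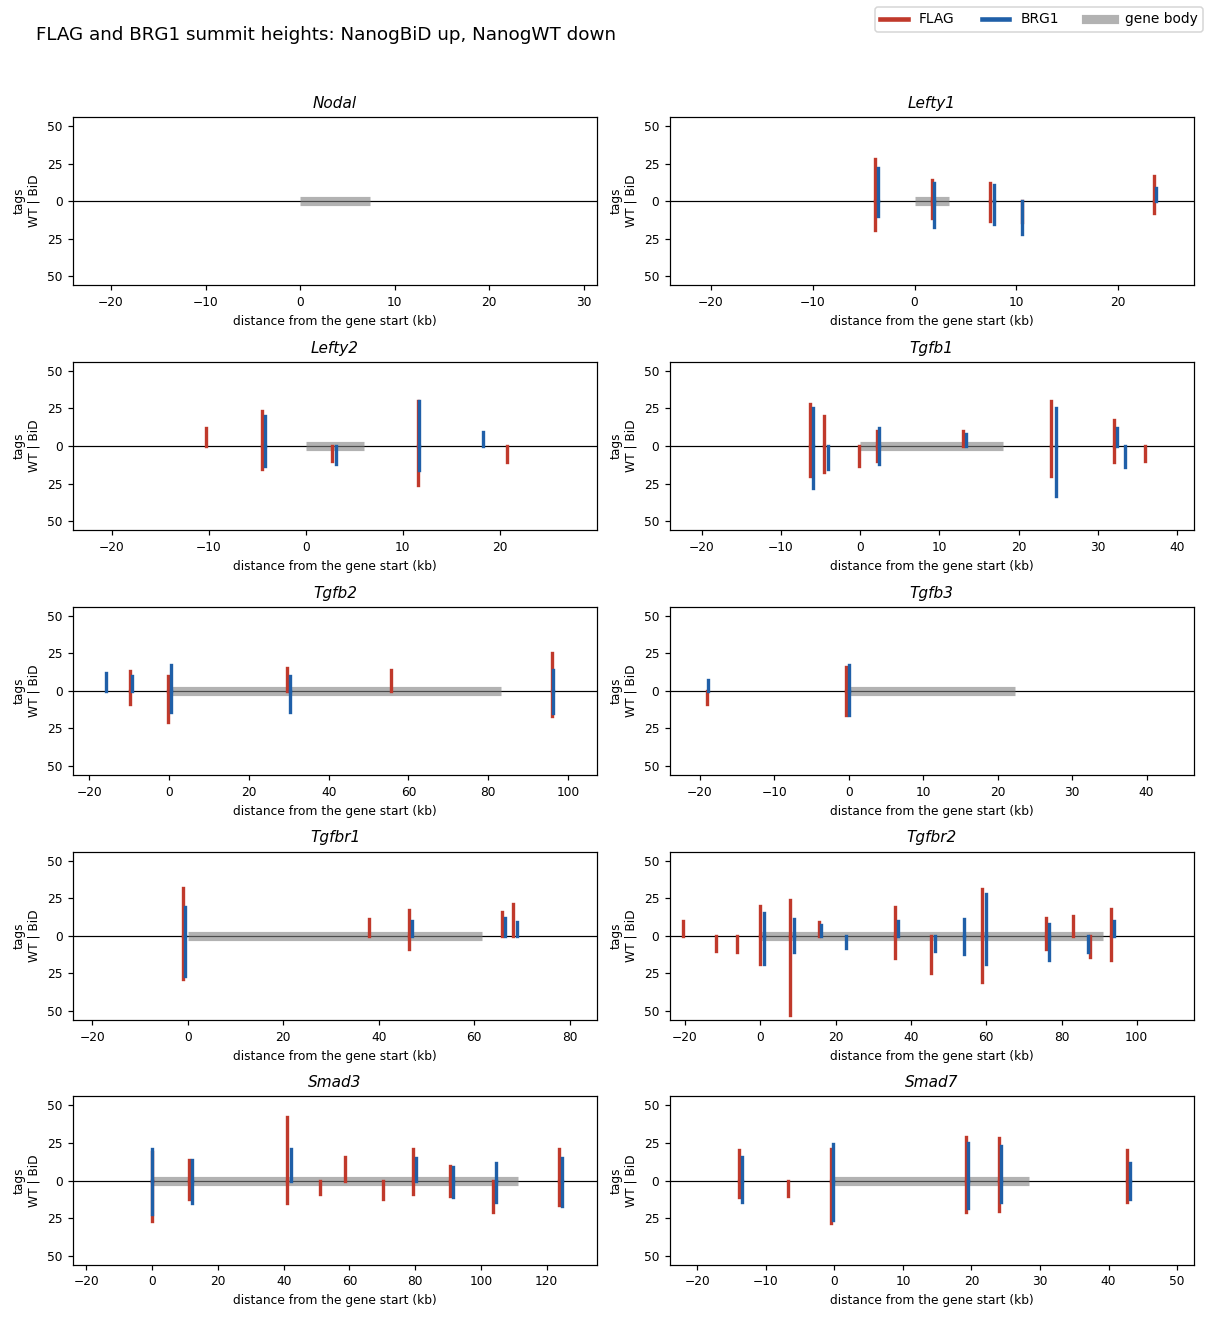
Heights of FLAG (red) and BRG1 (blue) summits in tags, upward for NanogBiD and downward for NanogWT, against distance from the gene start in kb in each of the 10 windows, with the gene body in grey. Nodal has none, Tgfbr1 has its distal summits in NanogBiD above the line, and Tgfbr2 has its highest FLAG summit (53 tags) below the line.

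Nodal, the ligand of pluripotent and gastrulating cells, had 0 peaks of FLAG, BRG1 and H3K27ac in both arms. It held H3K4me1 only, at its promoter with heights of 15 tags in NanogWT and 18 in NanogBiD, and at -18.4 kb with 13 and 11 tags. A site at 25.6 kb in an intron of Eif4ebp2 had 16 tags in NanogWT and no peak in NanogBiD. It was the member of the set with no peak of either factor at day 5.

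Lefty1 and Lefty2, secreted antagonists that block Nodal, lie side by side on chromosome 1. Reads that map to several places had been removed, so sequence common to these related genes could be lost in both arms. At Lefty1 the FLAG peaks numbered 5 in NanogWT and 4 in NanogBiD, and BRG1 peaks numbered 4 in both. The site at -3.73 kb of Lefty1 (chr1:180930628-180931960, between genes) had FLAG heights of 19 and 28 tags in NanogWT and NanogBiD, and BRG1 heights of 10 and 22 tags, a fold of 2.2. H3K27ac was there in NanogBiD only, at 11 tags, and H3K4me1 stood at 17 and 19 tags, so that all 4 targets were higher in NanogBiD.

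The site at -4.36 kb of Lefty2 (chr1:180887950-180889552, between genes) ran the same way. Its FLAG heights were 15 and 23 tags, its BRG1 heights 13 and 20 tags and its H3K27ac heights 12 and 24 tags, folds of 1.53, 1.54 and 2. H3K4me1 was lower in NanogBiD, at 27 and 22 tags. The summits of NanogBiD at both upstream sites are shown because each was higher in NanogBiD for FLAG, BRG1 and H3K27ac, and they were chosen after their values were seen. The Lefty1 site held a match to the AP-1 motif TGANTCA and 1 to the TEAD motif GGAATG, and the Lefty2 site held the SMAD motif CAGAC on the minus strand.
Lefty1 upstream, chr1:180931347-180931447: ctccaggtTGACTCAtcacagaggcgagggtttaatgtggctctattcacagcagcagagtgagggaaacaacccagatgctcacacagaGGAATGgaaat
Lefty2 upstream, chr1:180888631-180888731: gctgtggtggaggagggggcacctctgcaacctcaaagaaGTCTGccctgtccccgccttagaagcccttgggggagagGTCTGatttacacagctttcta

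Both genes also held a region with FLAG and BRG1 in NanogWT only. At Lefty1 it was at 10.5 kb, near a start of Tmem63a, with a FLAG height of 14 tags and a BRG1 height of 22 tags. At Lefty2 it was at 2.91 kb, with heights of 10 and 12 tags, and neither region had a peak of H3K27ac or H3K4me1. The summit sequence at Lefty2 was a run of which 89.1% was G or T, with a match to the FOXH1 motif AATNCACA on the minus strand, and that at Lefty1 held SMAD and NANOG (TAATGG) motifs.
Lefty1 downstream, chr1:180945656-180945756: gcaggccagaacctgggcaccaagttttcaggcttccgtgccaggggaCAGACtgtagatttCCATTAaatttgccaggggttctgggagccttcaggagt
Lefty2 intragenic, chr1:180895798-180895898: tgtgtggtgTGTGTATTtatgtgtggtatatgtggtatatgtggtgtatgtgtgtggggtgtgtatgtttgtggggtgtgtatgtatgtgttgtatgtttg

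The other sites described here are of Lefty1. At 23.9 kb of Lefty1, near a start of Tmem63a, FLAG was 8 and 17 tags and BRG1 was found in NanogBiD only, at 9 tags. At the Lefty1 promoter the order was mixed, with FLAG at 11 and 14 tags, BRG1 at 17 and 12 tags, H3K27ac at 13 in both arms and H3K4me1 at 24 and 17 tags.

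Smad7, the inhibitory SMAD that binds the type I receptor, had nearly the same sites in both arms. FLAG peaks numbered 6 and 5, BRG1 peaks 5 in both arms, and each mark had 6 and 5. At the promoter all factors were lower in NanogBiD, with FLAG at 28 and 21 tags, BRG1 at 26 and 24 tags and H3K27ac at 36 and 31 tags. Away from it FLAG was higher in NanogBiD at each of the 4 sites where both arms had it. The intron site at 19.5 kb had FLAG at 21 and 29 tags and BRG1 at 18 and 25 tags, and that at 24.1 kb had FLAG at 20 and 28 tags and BRG1 at 14 and 23 tags. At -13.6 kb FLAG was 11 and 20 tags and H3K27ac 9 and 17 tags, a fold of 1.89 for H3K27ac. H3K27ac was lower in NanogBiD at 24.1 kb (30 and 22 tags) and at 42.8 kb (16 and 12 tags), where FLAG was higher.

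Tgfb1, a ligand that drives matrix production by fibroblasts, shares its window with 5 other coding genes, and several of its peaks lay at their promoters. FLAG peaks numbered 7 and 6 and BRG1 peaks 5 in both arms. Its highest sites were at -6.26 kb, at a start of B9d2, and at 24.8 kb, in Ccdc97, and all 4 targets were found there in both arms. At 24.8 kb FLAG was 20 and 30 tags and H3K27ac 38 and 46 tags, while BRG1 was 33 and 25 tags. At 32.3 kb, near a start of Ccdc97, FLAG was 11 and 17 tags and H3K27ac 26 and 24 tags. BRG1 had 14 tags in NanogWT and 12 in NanogBiD there, at peaks that did not overlap each other. At -4.19 kb, near another start of B9d2, FLAG was 17 and 20 tags, whereas BRG1 (15 tags), H3K27ac (20 tags) and H3K4me1 (21 tags) were found in NanogWT only. In the gene at 13.1 kb both FLAG (10 tags) and BRG1 (8 tags) were found in NanogBiD only, with H3K4me1 at 13 tags in both arms. The sequence of this low site held none of the motifs.
Tgfb1 intron, chr7:25700053-25700153: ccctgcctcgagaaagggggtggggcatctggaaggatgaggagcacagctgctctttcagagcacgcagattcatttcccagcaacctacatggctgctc

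Tgfb2, a ligand active in heart and mesenchyme, had FLAG peaks of 4 and 5 and BRG1 peaks of 3 and 5. At its start FLAG was 21 tags in NanogWT and 10 in NanogBiD, 2.1 times higher in NanogWT, while BRG1 was 14 and 17 tags and H3K27ac 19 and 21 tags. H3K4me1 was 24 and 16 tags there. At 96.5 kb, beyond the gene, FLAG was 17 and 25 tags, BRG1 15 and 14 tags and H3K27ac 23 and 26 tags. At 29.9 kb in an intron FLAG was found in NanogBiD only (15 tags) and H3K27ac in NanogWT only (11 tags), with BRG1 in both at 14 and 10 tags. The larger BRG1 number in NanogBiD came from sites at -9.50 kb and -16.4 kb, of 10 and 12 tags. Among the top 20000 peaks it turned to 3 in NanogWT and 1 in NanogBiD.

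Tgfb3, the third TGF-beta ligand, had few sites. At its promoter the heights hardly differed, with FLAG at 16 tags in both arms, BRG1 at 16 and 17 tags and H3K27ac at 26 and 29 tags. H3K4me1 peaks numbered 5 in NanogWT and 2 in NanogBiD, and at 41.7 kb, in an intron of Ttll5, H3K4me1 was 21 and 11 tags, 1.91 times higher in NanogWT. At -3.78 kb, near a start of Ift43, H3K27ac was found in NanogWT only, at 19 tags.

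Tgfbr1, the type I receptor kinase that phosphorylates SMAD2 and SMAD3, had the largest differences in FLAG and BRG1 peak number in favour of NanogBiD among the 10 genes. FLAG peaks numbered 2 in NanogWT and 5 in NanogBiD, or 1.97 and 4.92 per 100 kb of window, and BRG1 peaks numbered 1 and 4. BRG1 had 1 peak in each arm with scores from 100 up, with heights of at least 15 tags and among the top 20000 peaks, and among the last FLAG too had 1 in each. H3K27ac had 1 peak in both arms, at the promoter, and H3K4me1 peaks numbered 5 and 2. The promoter was high in both arms, with FLAG at 29 and 32 tags, H3K27ac at 32 and 31 tags and BRG1 at 27 and 19 tags. The peaks of NanogBiD only lay in the introns and beyond the 3′ end, and none of them had H3K27ac. At 46.8 kb FLAG was 9 and 17 tags and BRG1 was found in NanogBiD only, at 10 tags, over H3K4me1 of 16 and 15 tags.

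Beyond the end of Tgfbr1 FLAG and BRG1 were found in NanogBiD only at 2 sites. At 66.2 kb (chr4:47418864-47419953) FLAG was 16 tags and BRG1 12 tags, with H3K4me1 in NanogWT only at 11 tags. At 68.5 kb (chr4:47421282-47422225) FLAG was 21 tags and BRG1 9 tags, with neither mark. These were the highest of the regions with both factors in NanogBiD only, and the first held none of the motifs while the second held TAATGG on the minus strand.
Tgfbr1 3′ site at 66.2 kb, chr4:47419506-47419606: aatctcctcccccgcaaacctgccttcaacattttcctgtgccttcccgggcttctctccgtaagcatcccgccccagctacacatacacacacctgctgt
Tgfbr1 3′ site at 68.5 kb, chr4:47421755-47421855: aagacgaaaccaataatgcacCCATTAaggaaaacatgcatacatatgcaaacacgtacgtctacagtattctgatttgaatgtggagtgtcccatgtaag

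Tgfbr2, the type II receptor that binds the ligand first, had 11 FLAG peaks in NanogWT, the largest number of the set, in a long window. Per 100 kb of window this was 8.39 peaks, below Tgfb1, Lefty1, Smad7 and Lefty2. NanogBiD had 9 FLAG peaks, and both arms had 8 of BRG1. In NanogWT and NanogBiD there were 10 and 6 peaks of H3K27ac, and 13 and 8 of H3K4me1. The site in an intron at 8.10 kb (chr9:116165200-116169330) had the highest FLAG summit of the set, with 53 tags in NanogWT and 24 in NanogBiD, 2.21 times higher in NanogWT. Only 0.514% of the NanogWT list of FLAG was as high or higher. BRG1 there was 11 tags in both arms and H3K27ac 23 and 21 tags, so that neither followed FLAG. H3K4me1 was found there in NanogWT only, at 17 tags.

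At 45.6 kb (chr9:116128843-116130619) Tgfbr2 held all 4 targets in NanogWT and none in NanogBiD. FLAG stood at 25 tags, BRG1 at 10, H3K27ac at 20 and H3K4me1 at 11. The same held at 87.1 kb, near the 3′ end of the gene, with 14, 11, 14 and 16 tags, though the FLAG and BRG1 peaks there did not overlap each other. H3K27ac of NanogWT only was also found at 28.5 kb (17 tags) and at 22.0 kb (9 tags, with BRG1 at 8 tags). The summit at 45.6 kb is shown since FLAG and BRG1 were found there in NanogWT only, and it held none of the motifs.
Tgfbr2 at 45.6 kb, chr9:116129445-116129545: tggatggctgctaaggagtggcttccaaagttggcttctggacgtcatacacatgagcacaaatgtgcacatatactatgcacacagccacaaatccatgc

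The remaining Tgfbr2 sites were mixed. At 59.1 kb FLAG was 31 tags and H3K27ac 32 tags in both arms, and BRG1 was 19 and 28 tags. BRG1 was found in NanogBiD only at 36.1 kb (10 tags, FLAG 15 and 19) and at 93.6 kb (10 tags, FLAG 16 and 18). At 76.1 kb BRG1 was 16 and 8 tags, 2 times higher in NanogWT. At 15.9 kb FLAG (9 tags) and BRG1 (7 tags) were found in NanogBiD only, both low, at a sequence without any of the motifs. H3K4me1 was found at this site in NanogWT only, at 19 tags. The promoter was alike in FLAG, with 19 and 20 tags, and lower in NanogBiD in BRG1 (19 and 15), H3K27ac (38 and 33) and H3K4me1 (22 and 16).
Tgfbr2 at 15.9 kb, chr9:116159346-116159446: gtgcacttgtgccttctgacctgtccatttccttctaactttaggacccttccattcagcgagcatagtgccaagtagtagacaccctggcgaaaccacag

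Smad3, the receptor-activated SMAD that binds CAGAC, held the FLAG region with the largest fold in favour of NanogBiD. In its intron at 41.6 kb (chr9:63715352-63717487) FLAG was 15 tags in NanogWT and 42 in NanogBiD, a fold of 2.8. BRG1 (21 tags) and H3K27ac (23 tags) were found in NanogBiD only, with no H3K4me1 in either arm. Of the NanogBiD list of FLAG 2.45% was as high or higher. The site is shown, chosen after its values were seen, since 3 targets were higher there in NanogBiD, and none of the motifs was found.
Smad3 intron, chr9:63716339-63716439: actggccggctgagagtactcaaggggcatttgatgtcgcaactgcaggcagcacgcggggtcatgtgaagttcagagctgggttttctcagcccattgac

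Other Smad3 introns held sites that were higher in NanogBiD for some targets. At 79.4 kb FLAG was 9 and 21 tags, a fold of 2.33, and BRG1 was found in NanogBiD only, at 15 tags, over H3K27ac of 17 and 19 tags. At 59.5 kb FLAG (16 tags), H3K27ac (17 tags) and H3K4me1 (16 tags) were found in NanogBiD only, without BRG1. In all, Smad3 had FLAG peaks of 9 and 7, BRG1 peaks of 5 and 7 and H3K27ac peaks of 9 and 11, and was the 1 gene of the set with more H3K27ac peaks in NanogBiD. At 103 kb FLAG was found in NanogWT only, at 21 tags, and BRG1 was 14 and 12 tags in the arms. At the promoter FLAG was 27 and 19 tags, with BRG1 at 22 and 21 tags and H3K27ac at 27 and 29 tags.

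**Figure D5:**
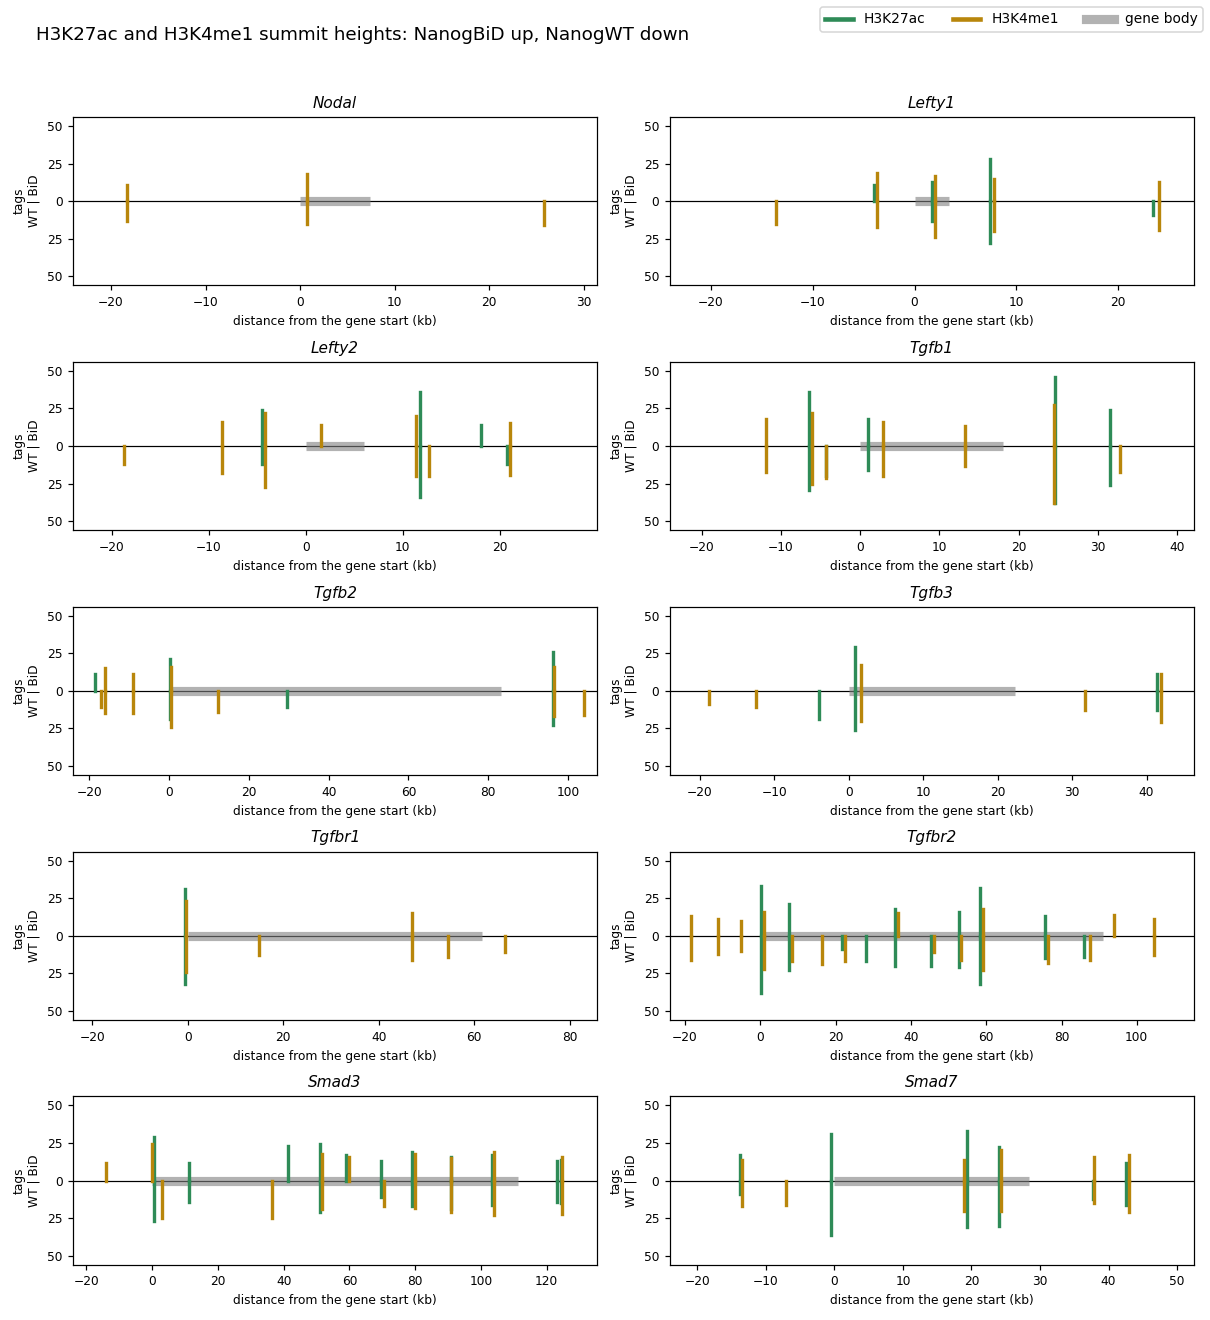
Heights of H3K27ac (green) and H3K4me1 (ochre) summits in tags, upward for NanogBiD and downward for NanogWT, against distance from the gene start in kb in each of the 10 windows, with the gene body in grey. In Tgfbr2 several H3K27ac summits stand below the line only, at Smad3 summits at 41.6 and 59.5 kb stand above the line only, and Nodal has H3K4me1 alone.

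The marks at sites with FLAG in 1 arm only were counted across the 10 genes. Of 13 sites with FLAG in NanogWT only, 7 had no H3K27ac in either arm (70.4% over the genome) and 3 had no H3K4me1 (43.9%). Of 11 sites with FLAG in NanogBiD only, 9 had no H3K27ac in either arm (79.8%) and 7 had no H3K4me1 (65.5%). The difference between these small groups was not tested. BRG1 was found in neither arm at 7 of the 13 (77% over the genome) and at 6 of the 11 (58.4%). It was found in the same arm only as FLAG at 4 sites of each kind, a share not computed over the genome. Regions of the FLAG and BRG1 lists with both in NanogWT only numbered 1448 over the genome, and those with both in NanogBiD only 10376. A further 11 sites held H3K4me1 in NanogWT and no other peak of the 8 lists, and their share over the genome was not computed.

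Motif letters were counted at the FLAG summits. CAGAC, the SMAD motif, was found within 50 bp of 10 of 44 summits in NanogWT (22.7%) and 10 of 40 in NanogBiD (25%), on either strand, leaving out chromosome 18 (Smad7). Over the whole lists 21.4% and 19.8% of summits held it. Each other motif was found at 5 summits or fewer per arm, and their counts follow with the share of the whole lists. TGANTCA, for AP-1, was found at 4 and 5 summits (8.13% and 10.4% over the lists), and GGAATG, for TEAD, at 2 and 2 (7.4% and 6.75%). ACAANGG, for SOX factors, was found at 3 and 2 (5.43% and 6.02%). The octamer ATGCAAAT of OCT4 was found at 2 and 1 (1.79% and 2.47%), AATNCACA of FOXH1 at 2 and 1 (2.95% and 3.05%) and TAATGG of NANOG at 2 and 1 (4.99% and 7.35%). No test was made on these small counts, and a match is not a bound site.

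A list of 41 other genes of the pathway, chosen by role, was set beside the 10 genes. FLAG peaks were more in NanogBiD at 23 of the 41, fewer at 6 and equal at 12, and those of BRG1 were more at 26, fewer at 7 and equal at 8. Of the 41, 2 had no FLAG peak and 3 no BRG1 peak. Among coding genes with a peak of the target, 50.2% had more and 17.6% fewer FLAG peaks, and 53.2% had more and 12.7% fewer BRG1 peaks. Summed over distinct peaks FLAG numbered 147 and 183, a ratio of 1.24 (0.996 to 1.56), and BRG1 103 and 147, a ratio of 1.43 (1.10 to 1.85). H3K27ac peaks were more at 18 and fewer at 9, a ratio of 1.08 (0.849 to 1.39), and H3K4me1 peaks more at 10 and fewer at 26, a ratio of 0.845 (0.691 to 1.03). Of the 41, 4 had no H3K27ac peak. Among coding genes with a peak of the mark the shares with more and fewer were 37.4% and 17.4% for H3K27ac and 19.7% and 51.6% for H3K4me1. For each target the interval of the 41 genes overlapped that of the 10 genes, and the difference between the lists was not tested.

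Among these genes the largest differences in favour of NanogBiD, by FLAG and BRG1 peaks added together, were at receptors. Acvr1c, a type I receptor for Nodal, had FLAG peaks of 3 and 9 and BRG1 peaks of 0 and 6, and Eng, a coreceptor of endothelial and mesenchymal cells, had 2 and 7 and then 3 and 8. Both factors were found in NanogBiD only at 3 regions of Acvr1c and 4 of Eng. The latent TGF-beta binding protein Ltbp1 had FLAG peaks of 15 and 16 and BRG1 peaks of 8 and 14, and Ccn2, a matrix gene that TGF-beta induces, had 5 and 7 and then 1 and 5. By FLAG and BRG1 peaks added together, the largest difference in favour of NanogWT was at Eomes, a transcription factor gene that Nodal induces, with FLAG peaks of 3 and 1 and BRG1 peaks of 3 and 0, though its H3K27ac peaks were 0 and 2. Next and equal by this sum were the type II activin receptor Acvr2b, with FLAG peaks of 3 and 2 and BRG1 peaks of 4 and 2, and the coreceptor Tgfbr3. Tgfbr3 had FLAG peaks of 21 and 17 and BRG1 peaks of 10 and 11, with 2 regions of both factors in NanogBiD only and 2 in NanogWT only. Inhbb and Ski each had 1 BRG1 peak fewer in NanogBiD and equal FLAG numbers.

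Regions with both factors in NanogBiD only were found too at Ltbp1 (3 regions), at Ccn2, at the ligand gene Gdf3, at Furin (a protease that processes ligands), at the latency genes Ltbp2, Ltbp4, Lrrc32 and Thbs1, and at the receptor genes Acvr1b and Acvrl1. They were found as well at Smad2 and at the inhibitors Pmepa1, Skil, Tgif1, Smurf1, Smurf2 and Smad6. Regions with both in NanogWT only were found at 4 of the 41 genes, namely Eomes and Tgfbr3 with 2 regions each, and Acvr2b and Acvr1b with 1. Those in NanogBiD only were found at 20 of the 41. Of all coding gene windows 26.4% held a region with both in NanogBiD only and 6.55% one with both in NanogWT only, with no account taken of window length.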

How the data were processed

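CUT&Tag covered 4 targets, and every target had 1 library from NanogWT and 1 from NanogBiD. Per the labels' processing notes the authors used Trim Galore 0.6.4, Bowtie2 2.4.5, SAMtools 1.16.1 and MACS 1.4.2 on mm10. They removed poorly mapped, repetitive and mitochondrial reads, merged replicates before calling, kept 1 copy of duplicate tags and named no control library. The reporting summary states that CUT&Tag was done once without biological replicates, beside a general statement that all experiments were replicated. In the deposited peak lists the value is the MACS score, at least 50. In the deposited summit lists it is the signal, the tag pileup at the summit. Neither was scaled to depth, and the lists carry no tag totals.

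Peaks were joined to summits by name. GENCODE M21 gave the genes, and a peak counted with at least 1 bp in the gene body or 20 kb either side. Promoters were 2 kb around any transcript start. Peaks that overlapped or touched were merged. Ratios of peak number have exact binomial 95% intervals and shares have Wilson 95% intervals. Motifs were searched on both strands within 50 bp of FLAG summits. The merging and classing of regions, the height ratios and the search for peaks in a window were checked on simulated data. At each gene the sites named were taken from the highest, those with FLAG and BRG1 in 1 arm only and those at least 1.5 times higher in 1 arm, together with sites that make up a difference in peak number. Sequences were of regions with FLAG and BRG1 in 1 arm only, besides 3 chosen after their values were seen. The genes, the lists and the rules were chosen with earlier results of these data known. Alternatives were heights of at least 15 tags, the 20000 top peaks by score, scores from 100 up, windows of 10 or 50 kb, summits inside the window, no peaks at other start sites, merging across 500 bp, scores in place of heights, an overlap of 50%, summits within 100 bp and motif windows of 25 bp. Python 3.11.15 and SciPy 1.17.1 were used. Sites that are not named are given in counts, and 1 result is not reported here.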

Additional observations from a re-analysis of the deposited data

Results flagged for a closer look

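The number of BRG1 peaks at the 10 genes was 1.23 times higher in NanogBiD (35 and 43 peaks), whereas the ratios of FLAG (0.9), H3K27ac (0.864) and H3K4me1 (0.692) were below 1. The BRG1 interval (0.768 to 1.98) included 1. The split did not hold under all settings, since FLAG was 1.22 with scores from 100 up, 1.1 among the top 20000 peaks, 1.25 with heights of at least 15 tags and 1.03 with 50 kb either side. BRG1 was 0.75 among the top 20000 peaks and 1 with heights of at least 15 tags. The top 20000 setting makes both whole lists equally long, so its values cannot be set beside the ratios of the full lists. Under the main setting all 4 ratios, BRG1 included, were below those of the whole lists (FLAG 1.27, BRG1 1.74, H3K27ac 1.20, H3K4me1 0.791). The difference between targets was not tested, since each group had 1 library.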

How the results depend on the processing

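No paired analysis was possible because there was a single library per target and arm. The ratio of FLAG peak number at the 10 genes, 0.9, turned to 1.22 with scores from 100 up, 1.1 among the top 20000 peaks by score, 1.25 with heights of at least 15 tags and 1.03 with 50 kb either side. The BRG1 ratio turned to 0.75 among the top 20000 peaks, where the BRG1 peaks of Tgfb2 had 25% of their number in NanogBiD, and it was 1 with heights of at least 15 tags. The top 20000 setting makes both whole lists equally long. Ratios of the whole lists under the score and height limits were not computed, so a shift of the whole lists cannot be told apart from these changes. The ratios of H3K27ac and H3K4me1 stayed below 1 under all alternatives tried.

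The median log2 height of FLAG was 0.17 among the top 20000 peaks, 0.29 with heights of at least 15 tags, 0.23 with 10 kb, 0.30 with 50 kb and 0.14 with scores in place of heights. That of BRG1 turned to 0.37 with scores, and that of H3K27ac was 0.093 with scores from 100 up. That of H3K4me1 was -0.29 with scores from 100 up, -0.30 among the top 20000 peaks, -0.21 with heights of at least 15 tags, -0.21 with 10 kb and -0.34 with scores. FLAG peaks overlapped BRG1 at a share of 80% in NanogWT among the top 20000 peaks (8 of 10) and 56.7% in NanogBiD with heights of at least 15 tags. With summits within 100 bp it was 26% in NanogWT and 44.4% in NanogBiD. Genes with fewer FLAG peaks in NanogBiD numbered 0 with scores from 100 up, 2 among the top 20000 peaks, 1 with heights of at least 15 tags and 4 with 10 kb, against 7. Among the top 20000 peaks, genes with more BRG1 peaks numbered 2 against 4 and those with fewer H3K4me1 peaks 4 against 9. The cause of these changes was not tested. Of 103 alternative values of the main comparisons 76 were labelled as the same, 21 as moved and 6 as reversed in direction. The label of the same did not always mean a small move. It was given to BRG1 ratios of 1.53 with scores from 100 up and 1 with heights of at least 15 tags, against 1.23. It was also given to an H3K4me1 ratio of 0.5 with scores from 100 up, against 0.692. Without replicates, the spread between cultures is unknown, and the part of sequencing depth in these ratios was not tested.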
